A study of Mus musculus with 18 samples.

Results

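Arrays labelled Rescue and titled 8h were compared with arrays labelled Rescue and titled 0h, 3 arrays a side, chosen by their titles as 6 of the 18 arrays in the series. All cells were mouse embryonic stem cells of strain 129SV that, per the labels, lack Esrrb and express Raf-ErT2, a Raf kinase fused to an estrogen receptor domain that 4-hydroxytamoxifen (4OHT) switches on. The Rescue cells also carry an Esrrb transgene, and the KO cells used for the comparison of the lines carry an empty vector in its place. Every group was moved 24 h before treatment to serum, LIF and the FGF receptor inhibitor PD173074 at 250 nM. The 0h cells were untreated, and the 8h cells, going by the titles and the treatment text, had 250 nM 4OHT for 8 h. The source names of the arrays titled 8h add 2 h of a Mek inhibitor, which the titles place on another group, so the grouping rests on the titles. Cells without Raf-ErT2 were not given 4OHT on any array analysed here, so drug and kinase cannot be told apart. The labels do not say whether a, b and c were separate cultures or clones, so the p-values measure the spread between these arrays, which may be technical. A group kept 1 array position across the slides, and position cannot be separated from group. In bulk RNA, fewer cells of a type and less RNA per cell cannot be told apart either.

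Raf kinases phosphorylate MEK, MEK phosphorylates ERK, and ERK acts on transcription factors that first switch on immediate-early genes such as those of the FOS, JUN and EGR families. The same pathway turns on its own inhibitors, among them phosphatases that strip phosphate from ERK and the Sprouty and Spred proteins that block it further upstream. In mouse embryonic stem cells ERK signalling is known for moving cells out of naive pluripotency, the state held by Nanog, the Klf factors and Esrrb.

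Levels are log2 processed signals minus the array's 75th percentile, so that a level of 0 lies at that percentile, and changes are 8h minus 0h on that scale with their SE. The level of 1 probe is not set against that of another. On the 6 arrays that percentile lay between 297 and 597 intensity units and 55.6% to 63.5% of spots were well above background, with the lowest value of each on the 0h array of slide c. Replicates correlated across genes at 0.983 to 0.994 at 0h and 0.994 to 0.996 at 8h. Esrrb stood at 4.13, 4.21 and 4.87 on slides a, b and c at 0h and at 2.15, 1.75 and 1.84 at 8h. The arrays labelled KO averaged 5.03 at 0h, above the mean of 4.40 on those labelled Rescue, so this probe does not separate the lines the way the labels do. Whether it lies in the deleted exons is not known. All 10 embryonic stem cell markers were well above background on every array of both groups. Of 12 fibroblast markers 6 were above background on all 0h arrays and 7 on all 8h arrays, and Lum and Twist2 were on none. Their summed linear signal went from between 2.34 and 2.63 to between 6.68 and 7.88, of which Thy1 alone gave 1.56 to 2.01 and 6.08 to 7.29. Fap went from 0 to 3 arrays above background, but with normexp background correction it changed by 0.275 (adjusted p = 0.345). The normexp correction added an offset of 50 intensity units to every spot. The lowest signals above background on these arrays were 6.44 to 10.6 units, so the offset shrinks changes of dim genes. For such genes, here and below, a small normexp change cannot decide whether they rose or fell. Pdgfrb (-0.56 ± 0.19) and Fbln2 (-1.13 ± 0.24) fell, and Col1a1 (-0.63 ± 0.30, adjusted p = 0.0187 with the slide as a block) did not pass. Of 8 blood markers 4 and 5 were, with sums of 6.73 to 10.3 and 7.62 to 8.60 and with Adgre1, Lyz2 and Tyrobp on no array. Of 7 endothelial markers 4 and 5 were, with sums of 2.02 to 2.25 and 2.45 to 2.88 and with Tie1 and Emcn on no array. Of 8 neural markers 6 were in each group, with sums of 5.78 to 7.14 and 6.56 to 7.74 and with Neurog2 on no array. The part of such cells in the results was not tested.

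Among the 15746 genes tested, 4872 (30.9%) passed at an adjusted p below 0.05 in limma, 2202 higher (14.0%) and 2670 lower (17.0%) at 8h. More genes were called lower than higher, and larger fitted changes were more often rises. Fitted changes of at least 4-fold went up in 452 genes and down in 187, and those of at least 8-fold in 199 and 48. These include genes below background in 1 group, whose fitted sizes are not measured. Among called genes above background on all 6 arrays, 1818 higher and 2536 lower, the numbers were 245 and 119 at 4-fold and 83 and 22 at 8-fold. The median change was 1.01 among the genes called higher and -0.80 among those called lower. At 0h 291 genes were above background on no array, of which 214 were called higher, and at 8h 63 genes were above background on no array, of which 56 were called lower. Such genes passed the filter only through the other group, which fixed these directions in advance. Without overlap between the groups stood 3420 genes higher (21.7%) and 4233 lower (26.9%). Among called genes 98.9% had no overlap, so for a called gene the lack of overlap adds little. With no scaling between arrays the median of all genes moved from -0.05 to 0.29 and the calls were 1642 higher and 429 lower, and which direction prevails therefore hangs on the scaling. The counts without scaling are given below for the lists whose calls it changes most. Counts of calls in each list stand beside 14.0% higher and 17.0% lower over all genes.

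**Figure D1:**
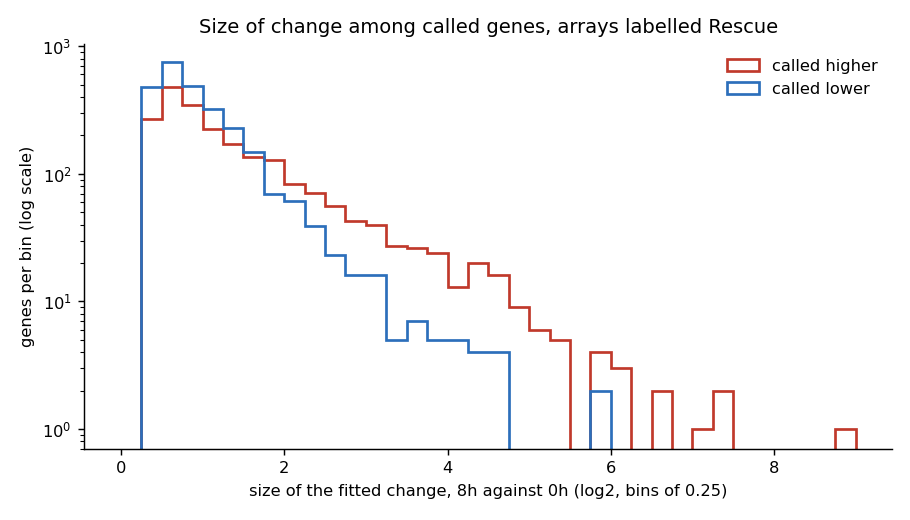
Number of genes per bin (vertical axis, log scale) against the size of the fitted log2 change (horizontal axis, bins of 0.25) for genes called higher (red) and lower (blue) at 8h on the arrays labelled Rescue. The blue line lies above the red one at small sizes and below it at large ones, where 199 genes rose and 48 fell by at least 8-fold.

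The genes of the Raf cascade itself changed little. Of 22 tested, 3 were called higher and 2 lower, with a median change of 0.03 beside -0.05 for all genes (0.37 without scaling, with 0 higher and 1 lower). Shc1, an adaptor of receptor kinases, rose by 0.44 ± 0.11, Nras by 0.39 ± 0.13 and Map2k1, which encodes MEK1, by 0.40 ± 0.13. None of these small rises passed without scaling, Nras was at 0.03 (adjusted p = 0.897) and Map2k1 at 0.35 (adjusted p = 0.0709) with normexp background correction, and Map2k1 also missed with quantile normalization (adjusted p = 0.0517). The largest change of the list was in Rasgrp1, an exchange factor that loads RAS with GTP, at -1.06, -1.14 and -1.39 on slides a, b and c at 0h and -3.62, -3.73 and -3.59 at 8h. Its groups did not overlap, and the change was -2.45 ± 0.30 (adjusted p = 0.000122).

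Many inhibitors of the pathway rose. All 8 measured Sprouty, Spred and related genes were called higher (6 with normexp background correction), with a median of 1.28, and 6 of 11 dual-specificity phosphatases were higher with none lower, median 1.04. Dusp2, a nuclear ERK phosphatase, read -1.40, -1.23 and -0.45 at 0h and 2.91, 2.72 and 2.86 at 8h, a 14.5-fold rise (3.85 ± 0.25, adjusted p = 1.63e-06). Dusp5, which acts on ERK in the nucleus, went from -3.11, -3.40 and -2.86 to -0.30, -0.20 and -0.32, a 7.18-fold rise. Both genes had their 8h arrays close together and far above every 0h array. Dusp4 rose 10.4-fold and Dusp1 by 2.12 ± 0.22, while Dusp7 (0.40 ± 0.18), Dusp9 (0.11 ± 0.12) and Dusp16 (-0.05 ± 0.21) did not pass. Spry2, which blocks RAS activation below receptors, stood at 0.79, 1.13 and 1.24 at 0h and at 3.42, 3.43 and 3.30 at 8h, a 5.02-fold rise. Errfi1, an inhibitor of the EGF receptor, was at 2.64, 2.54 and 2.05 and then at 4.29, 4.38 and 4.37. Errfi1 rose 3.83-fold, and Spred1, Spred2 and Spred3 rose by 1.44 ± 0.20, 0.65 ± 0.13 and 1.12 ± 0.25, though Spred2 and Spred3 missed with normexp (adjusted p = 0.0799 and 0.0896).

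**Figure D2:**
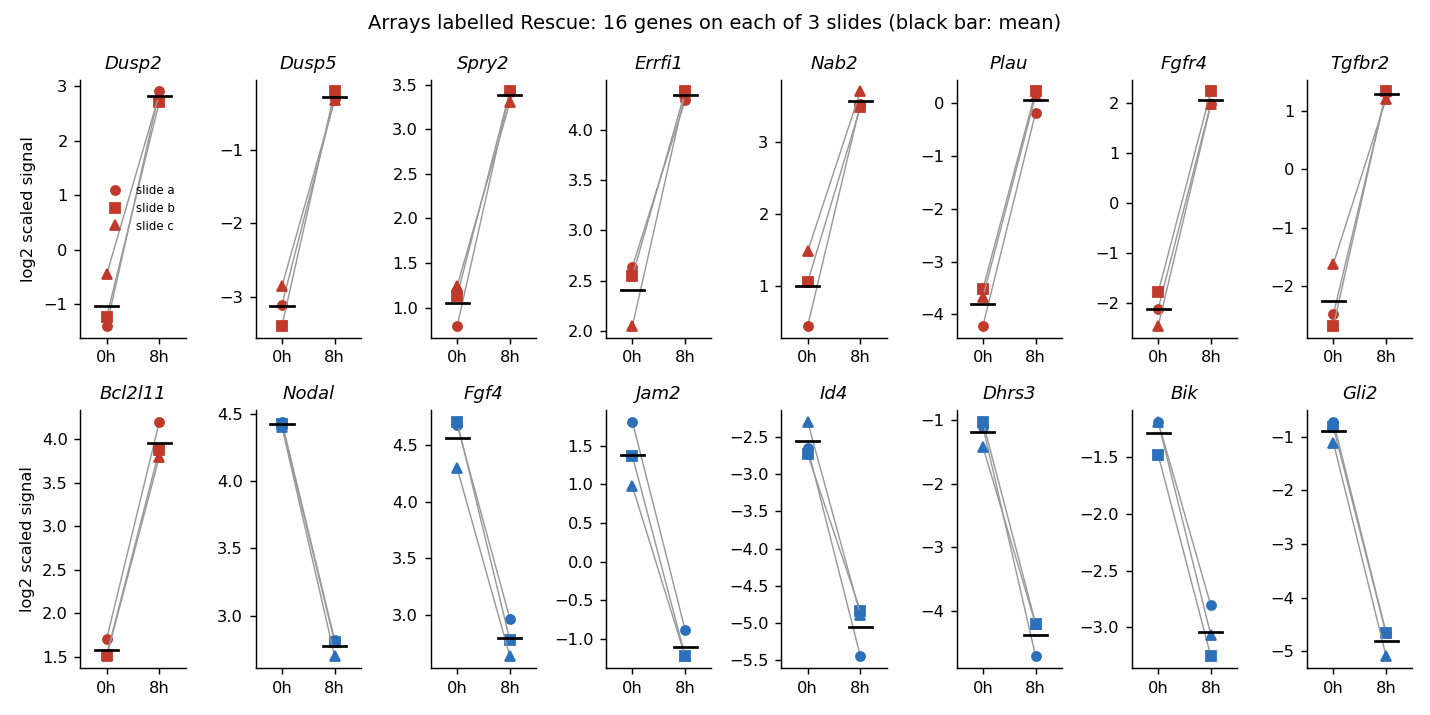
Log2 scaled signal (vertical axes, a scale for each gene) at 0h and 8h on the arrays labelled Rescue for 16 genes. Circles, squares and triangles are slides a, b and c, lines join the arrays of a slide, bars are means, red marks genes called higher and blue genes called lower. In none of the 16 genes do the 0h and 8h arrays overlap, which holds for 98.9% of all called genes.

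Immediate-early transcription factors had the highest list median, 1.37, though with normexp background correction that of the Sprouty and Spred list, 1.19, was higher than theirs. Of 30 tested, 23 were called higher and 3 lower, and without scaling 21 and 0. Within the AP-1 family, whose FOS and JUN subunits pair on DNA, Fos rose by 2.21 ± 0.19, Fosl2 by 2.18 ± 0.36, Junb by 1.91 ± 0.21, Fosb by 1.42 ± 0.28 and Jun by 1.36 ± 0.27, and Jund differed by -0.32 ± 0.16 (adjusted p = 0.148). Maff, a small MAF protein, read -1.28, -1.10 and -1.48 at 0h and 1.35, 1.37 and 1.47 at 8h, a 6.40-fold rise. Egr2 rose 6.36-fold from -2.97, -3.36 and -3.10 to -0.44, -0.56 and -0.42. Nab2, a corepressor that binds EGR proteins and limits them, rose 5.95-fold, from 0.44, 1.05 and 1.48 to 3.52, 3.48 and 3.70. For Maff, Egr2 and Nab2 all 8h arrays exceeded all 0h arrays, and in 98.9% of all called genes the groups did not overlap. Myc, a growth regulator, rose 4.66-fold. The members that fell were Srf (-0.81 ± 0.20), the factor of serum response elements, Ccn2 (-0.78 ± 0.18), a matrix signalling protein, and Btg2 (-1.12 ± 0.30), an antiproliferative gene also induced by p53.

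ETS factors, several of which ERK phosphorylates, did not move as a group. Of 17 tested, 1 was called higher and 4 lower, beside 14.0% and 17.0% of all genes. The median was 0.08 (0.42 without scaling, with 1 higher and 1 lower). Etv4 rose by 1.96 ± 0.31, from 1.47, 2.42 and 2.94 to 3.99, 4.34 and 4.39, without overlap but with a wide spread at 0h. Its close relative Etv5 fell by 0.55 ± 0.13, from 5.69 ± 0.18 to 5.15 ± 0.16 (SD, n = 3), and its groups did not overlap. Elf3, an epithelial ETS factor, fell 3.63-fold, from 1.49, 1.18 and 1.02 to -0.71, -0.48 and -0.70.

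Promoter windows of RefSeq (GRCm38.p6), each from 250 bases before to 50 after a start site, were searched on both strands for 6 motifs: AP-1 (TGACTCA), CRE (TGACGTCA), ETS (CCGGAAG), EGR (GCGGGGGCG), E-box (CACGTG) and the CArG box of SRF. A match is a description of letters and not a site of binding. Of the 15746 genes 12463 had a window, and 15693 windows were read. The AP-1 letters stood in 11.7% of 418 windows of genes with a fitted rise of at least 4-fold, in 6.59% of 2169 windows of all genes called higher and in 4.00% of all windows. They stood in 3.47% of 2740 windows of genes called lower and in 1.66% of 181 windows of genes that fell by at least 4-fold. The ETS letters were in 2.63% of windows for rises and 2 of 181 windows for falls of at least 4-fold, and at 11.8% and 9.45% for all genes called higher and lower, beside 14.8% of all windows. The CRE letters stood in 1.84% of windows of genes called higher and 3.36% of those called lower, beside 2.82% of all windows. At 4-fold the CRE shares were 2.63% and 1.66%. For the EGR letters the shares were 6.96% and 4.93% beside 4.87%, and at 4-fold 5.98% and 6.63%. The E-box stood in 9.08% and 9.93% beside 9.40%, and at 4-fold in 8.85% and 7.73%. The CArG box stood in 1.94% and 1.31% beside 1.47%, and at 4-fold in 2.87% and 2.76%, so for EGR and CArG the large rises and falls hardly differed. No test was made of these shares, and genes with several start sites count once for each.

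**Figure D3:**
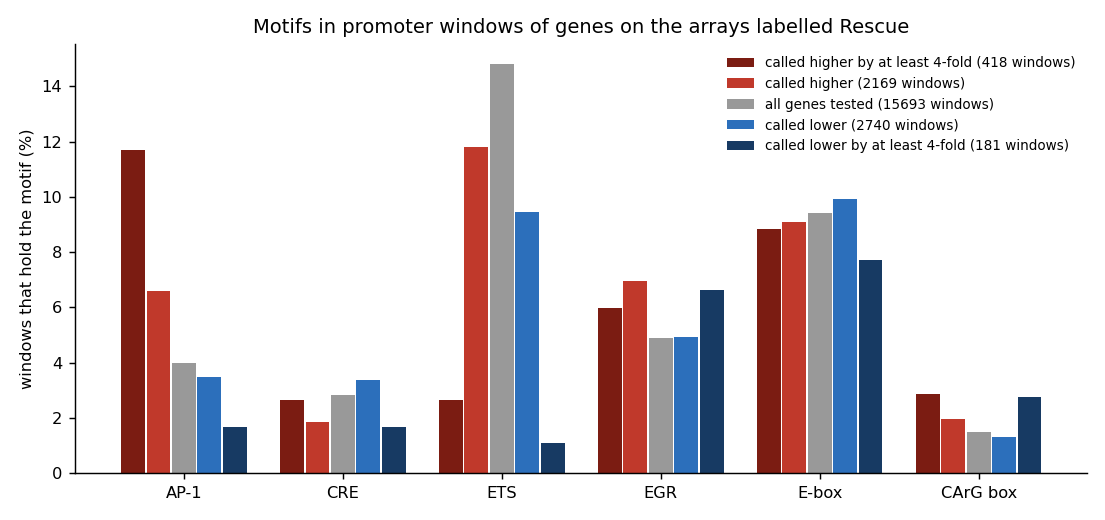
Share of RefSeq promoter windows (vertical axis, percent) that hold each of 6 motifs (horizontal axis), for genes called higher or lower at 8h on the arrays labelled Rescue, the same with a fitted change of at least 4-fold, and all genes tested. The AP-1 bars descend from 11.7% for large rises to 1.66% for large falls, and no other motif shows that order.

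The 150 bases before the start site are shown for 5 genes of the named set that rose and hold the AP-1 or CArG letters there, to show where the letters lie. Capitals mark the motif letters: AP-1 in the first 4, with the EGR letters to its left in Plaur, and a CArG box pair in Dusp5. The windows are chr3:92083143-92083292 (minus strand) for Lor, chr7:24462333-24462482 (plus) for Plaur, chr7:4778142-4778291 (minus) for the second of the Il11 start sites, chr4:43506876-43507025 (plus) for Car9 and chr19:53528995-53529144 (plus) for Dusp5, all 5′ to 3′ on the gene's strand.
Lor: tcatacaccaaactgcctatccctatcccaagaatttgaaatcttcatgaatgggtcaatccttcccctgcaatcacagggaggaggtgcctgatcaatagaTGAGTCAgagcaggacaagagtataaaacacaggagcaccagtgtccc
Plaur: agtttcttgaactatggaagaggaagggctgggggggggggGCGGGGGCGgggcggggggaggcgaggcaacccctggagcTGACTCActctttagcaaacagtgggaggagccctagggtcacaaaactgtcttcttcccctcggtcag
Il11: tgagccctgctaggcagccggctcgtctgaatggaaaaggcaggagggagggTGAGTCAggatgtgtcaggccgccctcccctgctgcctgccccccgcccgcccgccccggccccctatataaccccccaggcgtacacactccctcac
Car9: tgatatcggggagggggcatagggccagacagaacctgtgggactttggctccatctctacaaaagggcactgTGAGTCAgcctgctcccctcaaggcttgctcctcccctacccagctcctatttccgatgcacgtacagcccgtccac
Dusp5: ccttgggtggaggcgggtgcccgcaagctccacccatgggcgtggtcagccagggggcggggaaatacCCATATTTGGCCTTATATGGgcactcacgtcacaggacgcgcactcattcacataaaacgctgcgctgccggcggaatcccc
The AP-1 letters begin 48 bases before the start in Lor, 69 in Plaur, 98 in Il11 and 77 in Car9, and the CArG boxes begin 82 and 72 bases before it in Dusp5. Lor, which encodes the cornified envelope protein loricrin, rose 29.7-fold, from -1.39, -0.88 and -0.37 to 4.09, 4.06 and 3.88. The interleukin gene Il11 rose 22.5-fold, from -3.64, -3.29 and -2.80 to 1.13, 1.36 and 1.25. Car9, a carbonic anhydrase of the cell surface, rose 6.30-fold at its brighter probe, and its probes gave changes of 0.75 and 2.65.

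Of 11 genes of the EGF family 4 were called higher, all of them ligand genes, and 1 lower, with a median of 0.20 (0.01 with normexp background correction). Hbegf read -0.24, 0.01 and 0.59 at 0h and 2.82, 2.96 and 2.96 at 8h, a 6.95-fold rise. Areg and Ereg were above background on no 0h array and on all 8h arrays, and were at least 7.75-fold and 4.88-fold higher. Such bounds set the mean 8h signal against the lowest signal read above background at 0h, and hold for the processed signals only. With normexp background correction Areg and Ereg changed by 1.07 and 0.64, which is less than their bounds. Nrg1, a ligand of ERBB receptors, rose by 1.59 ± 0.31. The ligand genes Tgfa (1.12), Egf (-0.23) and Nrg4 (-0.05) did not pass. Egfr differed by -0.32 ± 0.26 and Erbb3 by -0.69 ± 0.44, and Erbb2, their partner receptor, fell by 0.48 ± 0.16 (adjusted p = 0.0476).

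Chemokines and cytokines split, 5 higher and 3 lower of 15 with a median of 0.17. Beside Il11, Cxcl14 rose 10.2-fold, from -2.97, -2.91 and -2.64 to 0.45, 0.76 and 0.31, and the cytokine genes Il24 and Clcf1 rose by 3.48 ± 0.72 and 2.27 ± 0.38, with 2 of the 3 0h arrays above background for each. The chemokines Cxcl12 (-2.42 ± 0.43), Cxcl10 (-1.98 ± 0.38) and Cxcl5 (-1.45 ± 0.45) fell, and Lif itself differed by -0.25 ± 0.37.

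In the plasminogen and matrix protease system 8 of 15 genes were called higher and 1 lower, with a median of 0.98 that was 0.35 with genes below background at their bound and 0.15 with normexp background correction. The urokinase gene Plau went from -4.22, -3.52 and -3.67 to -0.18, 0.22 and 0.14 (14.6-fold), and Plaur, its receptor, from 2.70, 3.16 and 3.62 to 5.69, 5.95 and 5.86 (6.38-fold). Mmp9, a gelatinase, rose by 3.87 ± 0.45 and Timp1, which inhibits such proteases, by 2.88 ± 0.17, both without overlap between the groups. Adam8 rose by 1.51 ± 0.25.

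The 15 FGF genes had a median of 0.06 (0.40 without scaling, with 1 higher and 1 lower). Beside 14.0% and 17.0% of all genes, 1 was called higher and 4 lower. The exception was the receptor gene Fgfr4, at -2.11, -1.78 and -2.45 at 0h and at 1.99, 2.23 and 1.97 at 8h, an 18.1-fold rise (4.18 ± 0.21, adjusted p = 3.07e-07) on arrays of cells grown with an FGF receptor inhibitor beforehand. Fgfr1 and Fgfr2 changed by -0.93 ± 0.25 and -0.89 ± 0.20. Fgf4, the ligand that embryonic stem cells make themselves, fell 3.41-fold, from 4.68, 4.71 and 4.30 to 2.97, 2.78 and 2.63, and Fgf17 fell by 1.37 ± 0.24.

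In the Nodal and TGF-beta pathway 7 of 18 genes fell and 3 rose, with a median of -0.61 (-0.28 without scaling, with 3 lower and 2 higher). Nodal read 4.44, 4.42 and 4.41 at 0h and 2.82, 2.80 and 2.70 at 8h, a 3.14-fold fall with hardly any spread. Its coreceptor Tdgf1 (-0.62 ± 0.17) and the receptors Tgfbr1 (-0.61 ± 0.18) and Acvr2b (-0.64 ± 0.10) fell as well. The genes that rose belong to the TGF-beta branch or inhibit activin. Tgfbr2, the type II TGF-beta receptor, rose 11.6-fold from -2.48, -2.68 and -1.61 to 1.31, 1.33 and 1.21, Tgfb1 rose by 2.43 ± 0.25, and Fst, a trap for activin, by 1.06 ± 0.34.

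Among 15 BMP genes 4 were called higher and 5 lower, with a median of -0.29 (0.05 without scaling, with 3 higher and 1 lower). Bmp4 rose 3.08-fold, from 0.76, 0.52 and 0.80 to 2.68, 2.14 and 2.13, and the BMP-responsive homeobox gene Msx1 rose by 2.81 ± 0.27. Among the Id genes, which encode inhibitors of helix-loop-helix factors, Id4 fell 5.64-fold, from -2.64, -2.73 and -2.29 to -5.44, -4.83 and -4.89, and Id2 fell by 1.13 ± 0.20. Id1 (0.41 ± 0.27) and Id3 (-0.64 ± 0.30) did not pass, but did in a fit of the 6 arrays alone with the slide as a block (adjusted p = 0.0461 and 0.0346).

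Of 26 naive pluripotency genes 16 fell and 4 rose, with a median of -1.46 that lay between -1.47 and -1.12 under the other scalings and at -1.35, -1.40 and -1.42 on slides a, b and c. The 16 include Esrrb (-2.49 ± 0.23), which these cells, per the labels, lack apart from the transgene. Jam2, a junction protein, went from 1.81, 1.37 and 0.97 to -0.88, -1.22 and -1.22, a 5.62-fold fall. Tcl1, a coactivator of AKT, fell 4.58-fold from 0.29, 0.05 and 0.16 to -1.81, -2.14 and -2.14. Mras, a RAS-related GTPase, fell 4.09-fold, Fbxo15, an F-box protein, 3.60-fold and Zfp42, the zinc finger factor also called Rex1, 2.93-fold, each without overlap. Tbx3 fell by 1.61 ± 0.31. Nr5a2 (-0.03 ± 0.17), Nr0b1 (-0.20 ± 0.15) and Dppa5a (-0.37 ± 0.14, adjusted p = 0.0366 with the slide as a block) did not pass. The members that rose included Klf5, at 2.80, 3.01 and 2.95 and then 3.83, 3.89 and 3.80 (0.92 ± 0.15), and the homeobox gene Gbx2 (1.15 ± 0.24). For Nanog the brighter probe read 2.52, 2.22 and 1.62 at 0h and -2.46, -2.78 and -2.58 at 8h, whereas a dimmer probe of the same gene gave a change of 0.83, so the 26.5-fold fall holds for the brighter probe.

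Core pluripotency genes split, 4 higher and 3 lower of 13, with a median of -0.04 (0.30 without scaling, with 2 higher and 0 lower). Dppa4 rose by 0.99 ± 0.25, Utf1 by 0.79 ± 0.16 and Pou5f1, which encodes Oct4, by 0.44 ± 0.15 (adjusted p = 0.0545 with the slide as a block). Lin28a, an RNA-binding protein, fell by 0.95 ± 0.13 and Trim28 by 0.48 ± 0.10. Genes of the formative and primed epiblast, the states that follow naive pluripotency, also split, 5 higher and 9 lower of 20, with a median of -0.27 (0.06 without scaling, with 5 higher and 2 lower). The surface protein Ly6a rose 19.4-fold, from -1.95, -1.86 and -2.27 to 2.42, 2.33 and 1.99, Sox4 5.77-fold, and Grhl2, an epithelial factor, by 1.32 ± 0.17. Zic2 fell 4.31-fold, Zic5 by 1.69 ± 0.34 and Sall2 by 1.74 ± 0.43. The epiblast genes Fgf5 (0.69 ± 0.32) and Otx2 (0.40 ± 0.27) did not pass, but did in the 6 arrays alone with the slide as a block (adjusted p = 0.00887 and 0.0443).

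**Figure D4:**
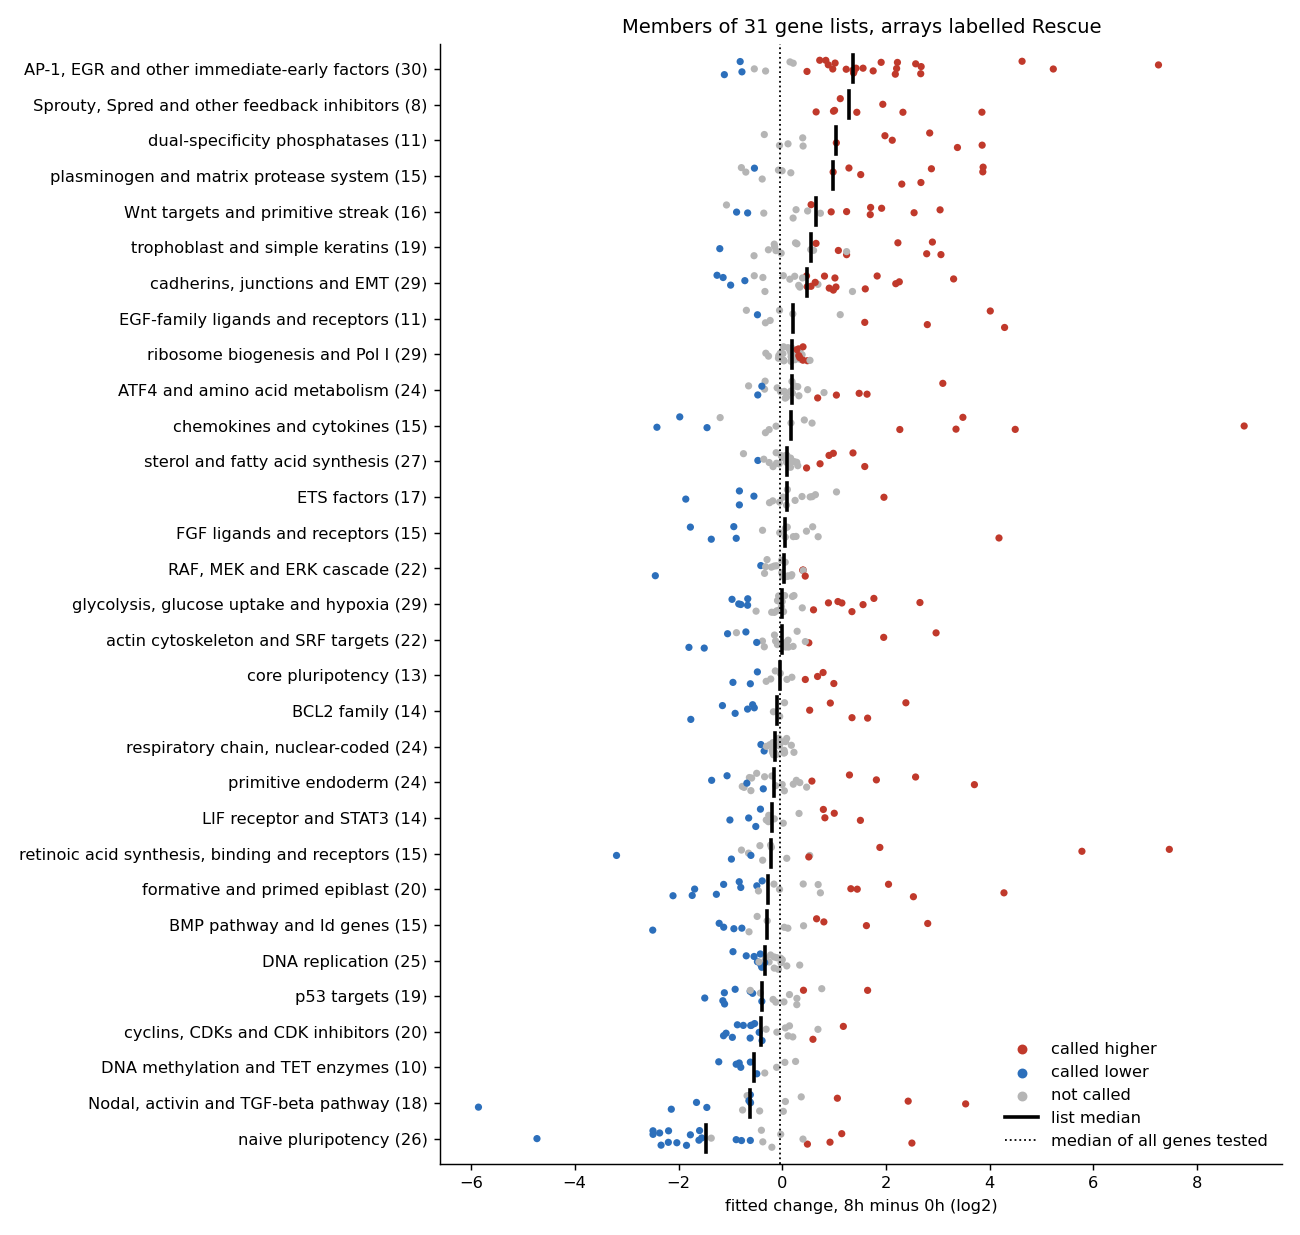
Fitted log2 change (horizontal axis) of each tested member of 31 gene lists (rows, number tested in brackets) on the arrays labelled Rescue, with red for called higher, blue for called lower and grey for not called. Black bars are list medians, from -1.46 for naive pluripotency to 1.37 for immediate-early factors, and the dotted line is the median of all genes at -0.05.

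No gene of the DNA methylation list rose, and 6 of 10 fell, with a median of -0.55. Without scaling the median was -0.22 and 0 of the 10 were called, with Tet1 at an adjusted p of 0.0747 and Dnmt3a at 0.487. Tet1, which oxidises methylcytosine, fell 2.34-fold, from 3.88, 3.71 and 4.03 to 2.80, 2.63 and 2.51, and Tet2 by 0.89 ± 0.20. The methyltransferase genes Dnmt3a (-0.80 ± 0.20) and Dnmt3b (-0.83 ± 0.25) and the cofactor gene Dnmt3l (-0.49 ± 0.16, adjusted p = 0.0505 with the slide as a block) fell, while Dnmt1 (0.26 ± 0.25) and Uhrf1 (-0.11 ± 0.24) did not pass. Genes of the LIF pathway split 4 and 4 of 14, with a median of -0.21 (0.13 without scaling, with 4 higher and 0 lower). The kinases Jak1 and Jak2 rose by 1.00 ± 0.16 and 1.51 ± 0.26. The LIF coreceptor Il6st fell by 0.42 ± 0.13 and the feedback inhibitor Socs3 by 0.51 ± 0.13, and Lifr (0.02 ± 0.10) and Stat3 (-0.26 ± 0.12) did not pass.

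Genes known from several lineages rose beside others that did not pass. Among Wnt targets and primitive streak genes 8 of 16 were called higher and 2 lower, with a median of 0.65 (0.14 with normexp, with 4 higher and 2 lower). T, the streak factor brachyury, and Mesp1, a mesoderm factor, were above background on no 0h array and were at least 3.85-fold and 1.80-fold higher, but with normexp T changed by 0.44 (adjusted p = 0.0983) and Mesp1 by 0.13 (adjusted p = 0.681). Sp5 rose by 1.70 ± 0.44, Evx1 by 1.70 ± 0.32, Eomes by 1.24 ± 0.23 and Axin2, a feedback inhibitor of Wnt signalling, by 0.56 ± 0.19, while the Wnt inhibitors Nkd1 (-0.88 ± 0.14) and Notum (-0.67 ± 0.17) fell. In the trophoblast list 7 of 19 were higher and 1 lower, with a median of 0.55. Tead4, a factor of the trophectoderm, rose 8.34-fold, from -0.67, -0.38 and -0.08 to 2.82, 2.73 and 2.50, and Krt19 by 1.08 ± 0.13, whereas Gata3 (-0.02 ± 0.27), Tfap2c (-0.15 ± 0.37) and Ascl2 (-0.12 ± 0.32) did not pass. The primitive endoderm list had 5 higher and 4 lower of 24, with a median of -0.16 (0.18 without scaling, with 4 higher and 0 lower). Afp, which encodes alpha-fetoprotein, rose by 3.70 ± 0.37 with 1 of 3 0h arrays above background, Gata6 rose by 1.30 ± 0.43, and Gata4 (-0.74 ± 0.33) and Sox17 (-0.13 ± 0.30) did not pass.

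Adhesion genes rose more often than they fell, 14 higher and 4 lower of 29, with a median of 0.48. Cdh2, which encodes N-cadherin, rose 9.87-fold, from -0.35, -0.72 and 0.16 to 3.28, 2.83 and 2.88, while Cdh1, which encodes E-cadherin, differed by 0.15 ± 0.12 (adjusted p = 0.392). The epithelial genes Cldn3 (2.19 ± 0.12) and Epcam (1.04 ± 0.12) rose, as did Twist1 (1.83 ± 0.32) and Vim (0.99 ± 0.23), which are known from mesenchymal cells, and the integrin genes Itga3 (1.60 ± 0.14) and Itgb1 (0.81 ± 0.18). The repressors of E-cadherin Snai1 and Snai2 fell by 0.72 ± 0.15 and 1.14 ± 0.28, and Fn1, which encodes fibronectin, by 0.99 ± 0.14. In the actin and SRF list 3 of 22 rose and 5 fell, with a median of -0.01 (0.33 without scaling, with 2 higher and 1 lower). Fhl2 rose 7.82-fold, from 0.21, 0.29 and 0.25 to 3.23, 3.23 and 3.20. The contractile genes Myl9 (-1.80 ± 0.48) and Cnn1 (-1.50 ± 0.29) fell, and Actb differed by 0.12 ± 0.14.

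The retinoic acid list had 4 higher and 3 lower of 15, beside 14.0% and 17.0% of all genes. Its median was -0.22 (0.11 without scaling, with 3 higher and 1 lower). Among its called genes were enzymes that make and degrade retinoids. Cyp26a1, which degrades retinoic acid, rose 54.9-fold, from -2.81, -3.06 and -2.92 to 3.03, 2.96 and 2.54 (adjusted p = 9.2e-07). Dhrs3, which turns retinal back to retinol, fell 9.16-fold, from -1.10, -1.02 and -1.42 to -4.71, -4.20 and -4.21, and Rdh10, which makes retinal, fell by 0.98 ± 0.19. Outside that list, the retinoid receptor gene Rxrg rose 36.4-fold.

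Death and survival genes of the BCL2 family split, 5 higher and 6 lower of 14, with a median of -0.11 (0.23 without scaling, with 4 higher and 1 lower). Bcl2l11, which encodes the killer protein BIM, rose 5.22-fold, from 1.71, 1.52 and 1.51 to 4.20, 3.88 and 3.80, and its relatives Pmaip1, Bid and Hrk rose by 1.65 ± 0.17, 0.93 ± 0.12 and 1.35 ± 0.44. Other killer genes fell: Bik 3.40-fold, from -1.18, -1.48 and -1.19 to -2.81, -3.26 and -3.07, Bmf by 1.15 ± 0.15, Bbc3, which encodes PUMA, by 0.91 ± 0.21 and Bax by 0.57 ± 0.17. Of the protective genes, Bcl2l1 rose by 0.53 ± 0.12, and Mcl1 (0.04 ± 0.18) and Bcl2 (-0.05 ± 0.24) did not pass. That value of Bcl2 holds for its brightest probe. With the mean of its probes Bcl2 fell by 0.85 ± 0.19 and passed (adjusted p = 0.00659). Of 19 p53 targets 8 fell and 2 rose, with a median of -0.39 (-0.06 without scaling, with 1 higher and 0 lower). Fas, a death receptor, fell by 1.49 ± 0.33, Trp53inp1 by 1.15 ± 0.25 and Phlda3 by 1.11 ± 0.23, whereas Cdkn1a, the p53 target that encodes p21, differed by 0.14 ± 0.13 and Mdm2 by 0.28 ± 0.13.

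The falls among cell cycle genes depended on the scaling. Of 20 cyclin and CDK genes 11 fell and 2 rose, with a median of -0.42 (-0.08 without scaling, with 2 higher and 0 lower). They included Ccnd1 (-0.96 ± 0.19), a cyclin of the G1 phase known to follow ERK in many cells, E2f1 (-1.08 ± 0.15) and the inhibitor Cdkn1b (-1.13 ± 0.24), while the inhibitor Cdkn2b rose by 1.18 ± 0.25. Of 25 DNA replication genes 9 fell and none rose, with a median of -0.34 (0.00 without scaling, with 0 called). Orc1 of the origin complex fell by 0.95 ± 0.19, Rrm2, which makes deoxynucleotides, by 0.69 ± 0.10 and Pcna differed by -0.10 ± 0.10.

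Growth and metabolic lists had medians between -0.13 and 0.18, beside -0.05 for all genes, and between 0.20 and 0.52 without scaling, beside 0.29. Ribosome biogenesis genes had 7 higher and none lower of 29, with a median of 0.18 (0.52 without scaling, with 0 called), and Polr1b, a subunit of RNA polymerase I, rose by 0.49 ± 0.17 (adjusted p = 0.0559 with the slide as a block). Sterol and fatty acid genes had 6 higher and 1 lower of 27, median 0.08 (0.42 without scaling, with 4 and 0). Fasn, the fatty acid synthase gene, differed by -0.02 ± 0.13 and did not pass. Amino acid genes had 5 higher and 2 lower of 24, median 0.18 (0.52 without scaling, with 5 and 0), with Mthfd2 up by 1.04 ± 0.21 and Atf4 (0.25 ± 0.22) not past the test. Glycolysis and hypoxia genes had 8 higher and 5 lower of 29, beside 14.0% and 17.0% of all genes. Their median was -0.01 (0.33 without scaling, with 6 higher and 0 lower). The lactate carrier gene Slc16a1 rose by 1.34 ± 0.13, the hexokinase gene Hk2 by 1.07 ± 0.29 and the phosphofructokinase gene Pfkp by 1.77 ± 0.30, the glucose carrier gene Slc2a3 fell by 0.80 ± 0.13, and Gapdh (-0.15 ± 0.12) did not pass. Of 24 nuclear-coded respiratory chain genes none rose and 2 fell, median -0.13 (0.20 without scaling, with 0 called).

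Among the 20 largest rises were genes of many kinds outside the lists. Nppb, a natriuretic peptide, rose 76.1-fold, from -2.25, -1.27 and -2.27 to 3.94, 4.61 and 4.41. Col6a5, a collagen chain, read -6.01, -5.35 and -6.51 at 0h, with 1 of 3 arrays above background, and 0.67, 0.80 and 0.85 at 8h, a change of 6.73 ± 0.38. Ptprc, which encodes the leukocyte phosphatase CD45, and Tspan8, a tetraspanin, were above background on no 0h array and at least 35.8-fold and 27.6-fold higher at 8h. With normexp background correction their log2 changes were 2.56 and 2.16, less than these bounds. Kdr, a VEGF receptor, rose 27.6-fold, from -4.85, -4.44 and -4.27 to 0.43, 0.16 and 0.21. Ptprc and Kdr are on the blood and endothelial marker lists. Of the other blood markers, Cd68 rose by 0.43 ± 0.15 (adjusted p = 0.0557 with the slide as a block), Csf1r, Fcer1g and Itgam were above background on all 6 arrays without a call, and Adgre1, Lyz2 and Tyrobp were above it on none. Of the other endothelial markers, Cdh5 went from 0 to 3 arrays above background and Pecam1 rose by 0.49 ± 0.16, Tek (-1.53 ± 0.15) and Vwf (-1.34 ± 0.22) fell, and Tie1 and Emcn were above background on no array. With normexp background correction, whose offset shrinks dim changes, Cdh5 changed by 0.06 (adjusted p = 0.849).

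Among the 20 largest falls were further genes of signalling and metabolism. Gli2, a transcription factor of Hedgehog signalling, fell 15.1-fold, from -0.72, -0.82 and -1.11 to -4.65, -4.66 and -5.09. Cyp1a1 and Cyp1b1, cytochromes known as targets of the aryl hydrocarbon receptor, both fell. Cyp1a1 went from all 0h arrays above background to none at 8h and was at least 24.8-fold lower, and Cyp1b1 changed by -3.95 ± 0.49 with 2 of 3 8h arrays above background. Spic, an ETS family factor outside the list, read -0.62, -1.31 and -1.82 at 0h and -5.49, -5.58 and -5.24 at 8h, also with 2 of 3 8h arrays above background. Acss1, a mitochondrial acetyl-CoA synthetase, fell by 3.63 ± 0.25 and the hyaluronan synthase gene Has2 by 3.60 ± 0.49.

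A contrast of the lines asked whether the 8h response depended on the transgene label. It called 449 genes (2.85%), of which 191 had a change higher and 258 a change lower on the arrays labelled KO, and 339 were also called on the arrays labelled Rescue. The count ranged from 156 to 594 when single arrays were left out, lowest without replicate b of the Rescue-labelled 8h arrays and highest without replicate b of the KO-labelled 0h arrays. Genes entered only through a Rescue group, so genes above background only with the KO label were left out, which bears on the split by direction. Of the differences called, 42.5% were higher with the KO label. That share was 50.8% among genes above background on all 12 arrays and 17.6% without scaling. Meox1, a homeobox gene, read -5.12, -5.59 and -5.09 and then -4.46, -4.91 and -4.51 on the arrays labelled Rescue, where it did not pass (0.64 ± 0.33) except in fits of Rescue arrays alone (adjusted p = 0.0101 with the slide as a block). With the KO label no 0h array was above background, and the 8h mean was -1.15. Ptprb, an endothelial phosphatase, rose by 1.61 ± 0.27 on the arrays labelled Rescue, and with the KO label no 0h array was above background and the 8h mean was -1.69. Both passed the test of the difference, whose size is not measured against readings below background. The lowest signal above background lay between 13.5 and 30.3 intensity units on the 0h and 8h arrays labelled KO. On those labelled Rescue it lay between 6.44 and 10.6. A dim gene was therefore less readily read above background with the KO label, and the part of this in the differences was not tested. Mras fell by 2.03 ± 0.23 on the arrays labelled Rescue and differed by -0.02 ± 0.23 on those labelled KO, and the difference passed the test at 2.01 ± 0.33 (adjusted p = 0.0104).

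Other genes had the higher change on the arrays labelled Rescue. Timp1 rose by 2.88 ± 0.17 against 0.83 ± 0.17, a difference of -2.05 ± 0.24 (adjusted p = 0.00232). The chloride channel gene Ano1 changed by 4.77 ± 0.36 with 2 of 3 0h arrays above background, against 0.20 ± 0.36, a difference of -4.57 ± 0.51. Fhad1 and Serpinb11 were above background on all 8h arrays labelled Rescue, on no 0h array of that line and on no 8h array labelled KO, and were at least 4.82-fold and 5.78-fold higher at 8h on the arrays labelled Rescue. With normexp background correction, whose offset shrinks dim changes, their log2 changes there were 0.62 (adjusted p = 0.113) and 0.72, less than these bounds. Dusp14 rose by 1.04 ± 0.32 on the arrays labelled Rescue and fell by 1.01 on those labelled KO, whereas Dusp4 rose by 3.38 ± 0.15 and 4.59 ± 0.15.

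**Figure D5:**
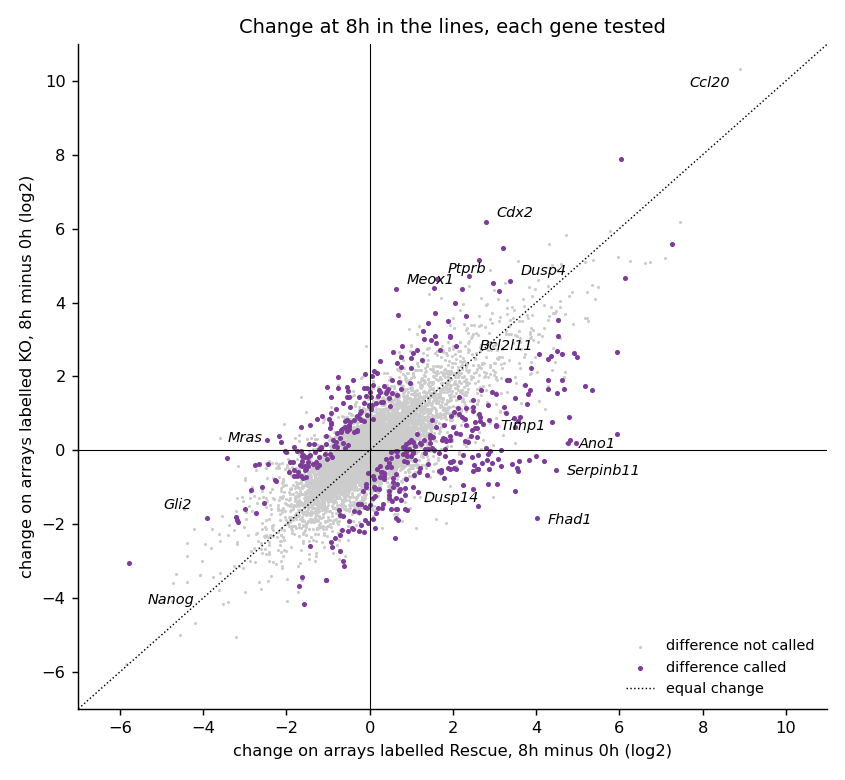
Fitted log2 change at 8h on the arrays labelled KO (vertical axis) against that on the arrays labelled Rescue (horizontal axis) for each gene tested. The 449 genes whose difference passed the test are purple, the dotted line marks equal change, and Fhad1, Serpinb11 and Ano1 lie far below it while Meox1, Ptprb and Cdx2 lie above it.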

How the data were processed

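RNA of 18 arrays was hybridised in 1 colour, and the 12 arrays titled 0h or 8h entered the fit. The authors deposited Agilent processed intensity values from Feature Extraction 12.0.1.1, per the file headers. The labels name Cy5, whereas the files hold the green channel. The deposited value table equals these intensities on 18 arrays. The log2 of the authors' deposited intensity minus each array's 75th percentile was tested with limma 3.58.1 in R 4.3.3, by group means, adjusted by Benjamini-Hochberg at 0.05. Probes had to be well above background on all 3 arrays of a Rescue group, and the brightest probe stood for a gene. Symbols came from RefSeq for 32994 of 56605 probes.

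Groups follow titles. Genes named were the 20 highest and 20 lowest changes, list members, those of both called in the difference between the lines, and the 5 highest and 5 lowest such differences. The comparison, members and lists were chosen with earlier results of these data known. Deviations of the Rescue 0h and 8h arrays of a slide correlated at 0.522, 0.359 and 0.214, so letters pair them. The fit was tested on simulated data, recovering 60.0% of 50 genes raised by 1 on the log2 scale among 15746 genes, with 8 false calls. Far fewer genes were changed there than were called in the data, and its arrays shared no slide effect. The recovery in the data may therefore differ. The number of arrays limits the precision. Alternatives covered background, scaling, filter, probe choice, block, arrays fitted and each array left out. Some list members are counted in their lists but not reported here by name.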

Additional observations from a re-analysis of the deposited data

Results flagged for a closer look

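Each of the 30 genes below was set apart because limma's contrast of the change on the arrays labelled KO minus that on the arrays labelled Rescue passed at an adjusted p below 0.05. Genes whose change was higher on the arrays labelled KO, with the difference on the log2 scale, were Cdx2 (3.39), Dnmt3a (1.91), Dnmt3l (1.06), Dusp4 (1.22), Fhl2 (1.56), Gbx2 (1.58), Gli2 (2.08), Itga3 (1.30), Lin28a (0.85), Meox1 (3.72), Mras (2.01), Nr0b1 (1.26), Ptprb (3.04), Tet1 (0.83), Thy1 (1.18) and Zfp42 (1.12). Genes whose change was higher on the arrays labelled Rescue were Ano1 (-4.57), Car9 (-1.87), Cdh2 (-1.40), Cdh5 (-3.52), Cdkn1a (-1.18), Dusp14 (-2.05), Ereg (-1.81), Fap (-3.08), Fhad1 (-5.86), Il11 (-1.82), Ly6a (-2.63), Maff (-1.05), Serpinb11 (-5.00) and Timp1 (-2.05). For Cdh5, Cdx2, Ereg, Fap, Fhad1, Meox1, Ptprb and Serpinb11 at least 1 of the 4 groups had no array above background, so the printed difference rests partly on background readings and its size is not measured. The Esrrb probe had the higher mean at 0h on the arrays labelled KO, so it did not separate the lines the way the labels do. The part of anything else that differs between the lines was not tested.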

How the results depend on the processing

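The count of 4872 genes was 2071 without scaling between arrays, of which 429 were lower and 79.3% higher against 45.2% with scaling, and 2066 (1111 higher and 955 lower) at a change of at least 2-fold. Leaving out single arrays gave 3533 to 4778, lowest without replicate b of the Rescue-labelled 8h arrays. The difference between the lines, 449 genes, was 297 with normexp background correction, 102 without scaling and 236 with no filter on dim probes, and 156 to 594 with single arrays left out. It was 283 and 277 without Rescue 0h replicate a or b, 262, 156 and 194 without Rescue 8h replicate a, b or c, 264 and 293 without KO 0h replicate a or c, and 259 without KO 8h replicate a. The cause was not tested. With the slide letter as a replicate block 5383 genes were called (486 for the difference). Beside Cd68, Col1a1, Dnmt3l, Polr1b, Pou5f1 and Dppa5a it changed no call among 213 genes named in the report. Those 213 leave out the genes under the other observations below, which were not followed by name through the alternatives. With the block on the 6 Rescue arrays alone, 7 calls were lost and 5 gained, among them Axin2 (adjusted p = 0.0582), Tdgf1 (0.0558) and Fgfr1 (0.0675) lost and Fgf5, Id1, Id3, Meox1 and Otx2 gained. Of the 213 genes, 172 were called, and none reversed in any alternative. Calls were lost for 57 without scaling, 45 at 2-fold, 17 with normexp and 17 without the filter. Single arrays ended 12 to 21 calls, all of them small or variable changes: Axin2, Fst, Pou5f1, Map2k1, Nras, Erbb2, Il6st, Hrk, Gata6, Tdgf1, Polr1b, Bax, Btg2, Cxcl5, Dnmt3b, Dnmt3l, Dusp14, Fgfr1, Tgfbr1, Myl9, Hk2, Sp5, Pdgfrb, Cd68, Pecam1 and Notum. Signal over background limits the 291 genes above background on no 0h array to bounds.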

Other observations

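Genes of the S100a family and genes of stratified epithelium were among the changes outside the lists. Both were gathered after their values were seen and are therefore given without a test of the group. Of 12 S100a genes, which encode small calcium-binding proteins, 10 were called higher and none lower, with a median change of 1.45. S100a4 stood at -1.60, -1.51 and -1.62 at 0h and at 2.39, 2.26 and 2.05 at 8h, a 14.1-fold rise, and S100a6 rose 6.08-fold from 4.75, 4.90 and 4.80 to 7.44, 7.45 and 7.35. The groups did not overlap in either gene. Of 30 keratin genes 11 were higher and 2 lower, with a median of 0.52. Krt5, a keratin of basal cells, rose 12.2-fold from -3.79, -3.91 and -3.97 to -0.42, 0.13 and -0.57, and Krt76 was at least 14.9-fold higher. Sprr1a, a cornified envelope precursor, rose 25.2-fold, while only 1 of 6 Sprr genes and 1 of 10 Lce genes were called, and of 17 Klk genes, the kallikrein proteases, 4 were higher and 4 lower. Over all genes tested 14.0% were higher and 17.0% lower. Krt15, Krt17 and Tgm1, the last a crosslinking enzyme of the envelope, fell.

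The Lce1k probe read 10.59 on the 8h array of slide c and between -4.75 and -3.50 on the other 5 arrays, and it was not called.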
